A study of Mus musculus with 73 samples.

Results

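The p53 target genes examined here are 10 genes that the transcription factor p53 is known to switch on: Cdkn1a, Mdm2, Ccng1, Perp, Btg2, Bax, Sesn2, Trp53inp1, Zmat3 and Phlda3. They were chosen by name, and 10 of 10 were among the 37310 gene identifiers of the RNA-seq count table and among the 16636 genes that passed the filter on low counts. RNA was measured in 12 of the series' 73 samples, all of the male mouse embryonic stem (ES) cell line E14Tg2a (strain 129/Ola, XY), kept feeder-free on gelatin with serum and leukemia inhibitory factor. The X-inactivation centre, which contains Xist and its antisense gene Tsix on the X chromosome, was edited with CRISPR plasmids or TALENs, to ask how its layout bears on both genes. The allele 40kb [Tsix-Xist] was measured in 4 libraries from 2 clones, beside 2 wild-type libraries labelled as corresponding to it. The allele 70kb [Xite-Jpx] was measured in the same way, beside 2 other wild-type libraries. The labels say that the series made inversions and deletions, but not which of them these alleles are. Each clone is 1 edited line with 2 libraries. Nothing says that the replicates were separate cultures, so the p-values measure the spread between these libraries, which may in part be technical.

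p53 is a tetramer that binds pairs of a short palindromic motif, the p53 half-site, in or near its target genes. DNA damage and other stresses free it from Mdm2, the ubiquitin ligase that keeps its level low, and its targets then arrest the cell cycle, start apoptosis or adjust metabolism. Mdm2 is itself a target, which closes a feedback loop. Mouse ES cells have a short G1 phase, and activated p53 in them also lowers Nanog and favours differentiation. Most of these targets are transcribed at some level in cells without added damage, so their RNA can be measured in undisturbed cultures such as these.

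The upstream sequence of the members is shown because such pairs are the known link between p53 and its targets. RefSeq promoter entries (build GRCm38.p6, whereas the deposited counts rest on mm9) matched 7 of the 10 members, with 8 windows in all, since Cdkn1a has a pair of annotated starts 2790 bases apart. Perp, Trp53inp1 and Zmat3 had no entry. An exact match to the p53 half-site within 250 bases upstream of a start was found for 4 members, against 7.13% of all 32851 windows searched. The motif is its own reverse complement, so 1 search covers both strands. Capitals mark exact half-sites, and each sequence runs 5′ to 3′ on the gene's strand.
Cdkn1a: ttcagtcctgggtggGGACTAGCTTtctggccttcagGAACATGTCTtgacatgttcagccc
Mdm2: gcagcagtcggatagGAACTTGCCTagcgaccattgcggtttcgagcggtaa
Ccng1: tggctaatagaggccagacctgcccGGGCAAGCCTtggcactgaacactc
Bax: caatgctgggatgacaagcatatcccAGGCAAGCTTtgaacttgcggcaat

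The Cdkn1a stretch (chr17:29090891-29090952, plus strand) lies 88 to 27 bases before the more upstream start and holds 2 exact half-sites with 12 bases between them. The 10 bases directly after the half-site nearer the start match the motif with 1 mismatch, so a pair without spacer lies there too. A pair without mismatches and with at most 13 bases between its half-sites was found in 0.06% of all windows. The Ccng1 stretch (chr11:40755447-40755496, minus strand) holds a pair with 1 mismatch of 20 bases and no spacer. The Bax stretch (chr7:45467075-45467125, minus strand) holds a pair with 1 mismatch and 1 base between. Pairs with at most 1 mismatch were found in 0.9% of all windows. In the Mdm2 stretch (chr10:117710908-117710959, minus strand) the half-site stands alone, and the best pair of that window has 4 mismatches. The windows of Btg2, Sesn2, Phlda3 and the second Cdkn1a start held no exact half-site, which says only that these letters are not in these windows.

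The 12 libraries held 34514493 to 46605508 counts. Levels are given in CPM, counts scaled to a common library total; they they are compared between libraries, never between genes, because CPM takes no account of transcript length. The pluripotency genes that define ES cells were present throughout: Pou5f1 averaged 848 to 1192 CPM over the 4 groups, and 15 of 15 markers of this kind were above 0 in every library. Summed markers of fibroblasts and trophoblast, cells that such cultures can hold, differed widely. The summed level of the fibroblast markers was 310 and 402 CPM in the wild type of the 40kb set, 14 to 60.2 in the 40kb allele, 96.6 and 360 in the 70kb set's wild type, then 58.9 to 626 in the 70kb allele. The summed trophoblast markers ran from 522 to 636, 45.1 to 135, 164 to 499 and 148 to 802 CPM in the same order. Tagln and Acta2 (199 and 60.6 CPM in the wild type of the 40kb set) made up most of the first sum there. Krt8 and Krt18 (243 and 194 CPM) made up most of the second. Of the markers past the low-count filter, 12 of 14 for fibroblasts and 9 of 10 for trophoblast were lower with the 40kb allele. The others, Thy1, Pdgfra and Ascl2, were higher (3.47 against 2.47, 1.00 against 0.894 and 2.38 against 1.59 CPM). Of the defining markers, Lum was at 0 in 7 libraries, Postn and Plac1 in 5, Elf5 in 3, Cdx2 and Col3a1 in 2, and Dcn and Gata3 in 1.

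**Figure D1:**
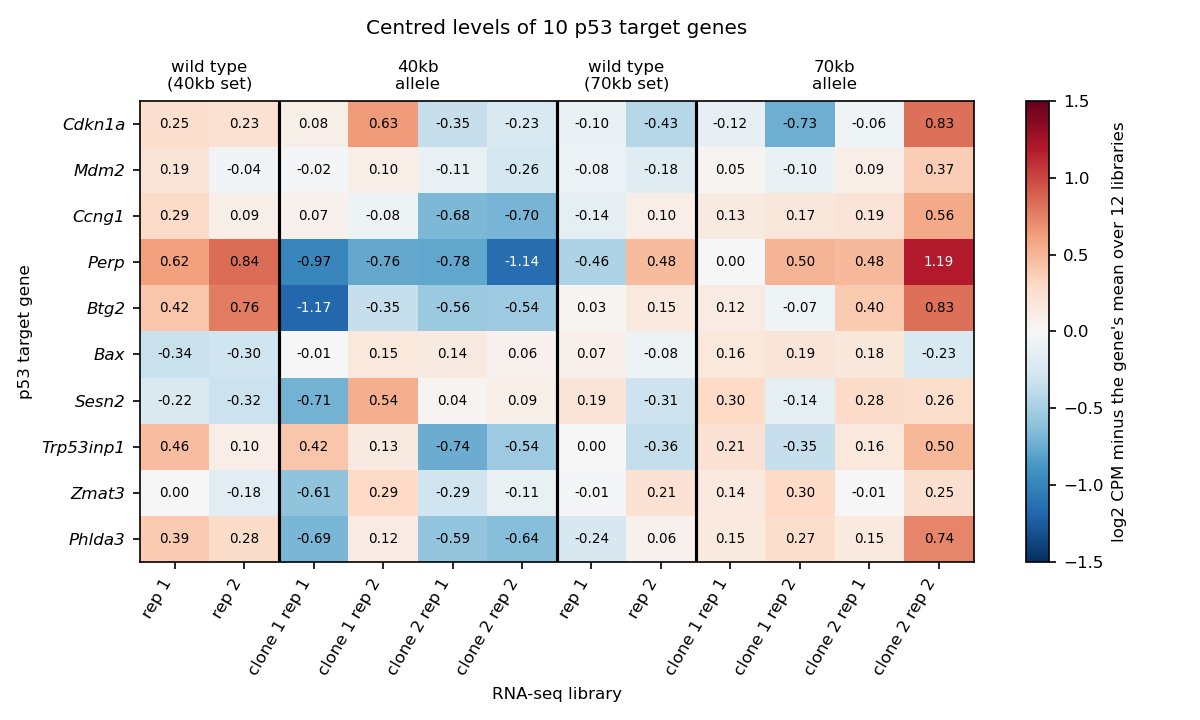
Levels of the 10 p53 target genes (rows) in the 12 RNA-seq libraries (columns), as log2 CPM minus each gene's mean over the 12 libraries. Perp lies between -1.14 and -0.76 in the 4 libraries of the 40kb allele, and the last column, 70kb clone 2 replicate 2, has the highest value of 7 of the 10 genes.

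The 40kb allele and its wild type were compared to ask which members changed with that edit. Perp, a tetraspan protein of the plasma membrane that supports desmosomes and takes part in p53-dependent apoptosis, fell 3.12-fold. Btg2, an antiproliferative protein that recruits the CCR4-NOT deadenylase to mRNAs, fell 2.34-fold. The other 8 members did not pass the test (edgeR quasi-likelihood test, Benjamini-Hochberg adjusted p under 0.05 over 16636 genes). Across all genes 6.43% were called, and 5.67% were called lower, so the count of 2 among 10 rests on Perp and Btg2 and says nothing of p53 targets as a kind. The fold changes of 8 members were below 0 and of 2 above, with a median of -0.27 on the log2 scale. The median was 0.06 for all genes tested, of which 56.2% were above 0.

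Perp (ENSMUSG00000019851.7) read 53 and 61.5 CPM in the wild-type libraries. In the 40kb libraries it read 17.5 and 20.3 CPM in clone 1, against 20.1 and 15.6 CPM in clone 2. The groups lay far apart and both clones were at the same low level. The mean fell from 57.3 ± 6.04 (SD, n = 2) to 18.4 ± 2.21 CPM (SD, n = 4). The log2 fold change was -1.64 (SE 0.285, edgeR adjusted p = 0.0175). Btg2 (ENSMUSG00000020423.6) read 33.8 and 43.0 CPM in wild type. It read 11.2 and 19.8 CPM in clone 1, against 17.1 and 17.4 CPM in clone 2, so every 40kb library was again below both wild-type libraries. Its mean fell from 38.4 ± 6.46 (SD, n = 2) to 16.4 ± 3.67 CPM (SD, n = 4), which is -1.23 on the log2 scale (SE 0.246, edgeR adjusted p = 0.0206). In bulk RNA, fewer cells of a type that expresses a gene and less RNA per cell cannot be told apart.

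The size of both falls changed with the wild type used and in a fit with marker levels, and the calls changed with more. Against the wild-type libraries of the other set the log2 fold change was -0.99 for Perp (edgeR adjusted p = 0.197) and -0.71 for Btg2 (adjusted p = 0.267). With the mean level of the fibroblast and trophoblast markers as a covariate it was -0.54 and -0.35 (edgeR adjusted p = 1.00 for both), a fit in which 0 of all genes were called and 292 had an unadjusted p under 0.05. That mean level did not overlap between the 40kb libraries (-2.27 to -0.67) and their wild type (1.29 and 1.55). Most of the marker genes were themselves lower in this comparison. The fit therefore cannot separate the allele from the markers, and a loss of calls was to be expected. The fold changes kept their size, but the calls were lost, without wild-type replicate 1 (Perp -1.75, edgeR adjusted p = 0.0747; Btg2 -1.39, 0.0748), without replicate 2 (-1.53, 0.178; -1.05, 0.224), with clone 2 only (-1.69 and -1.16, adjusted p = 0.0893 for both) and with counts summed per clone (-1.65 and -1.26, 0.0559 for both). With 1 wild-type library left, that library is assumed to vary like the other groups. With clone 1 only both stayed called (-1.60, edgeR adjusted p = 0.0348, and -1.31, adjusted p = 0.0391). With the B code of the column names as a block, Perp stayed called (-1.68, edgeR adjusted p = 0.0468) and Btg2 did not (-1.04, adjusted p = 0.0793). Replicate 1 of each 40kb clone has a code that no other library shares, so it does not add to that contrast.

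**Figure D2:**
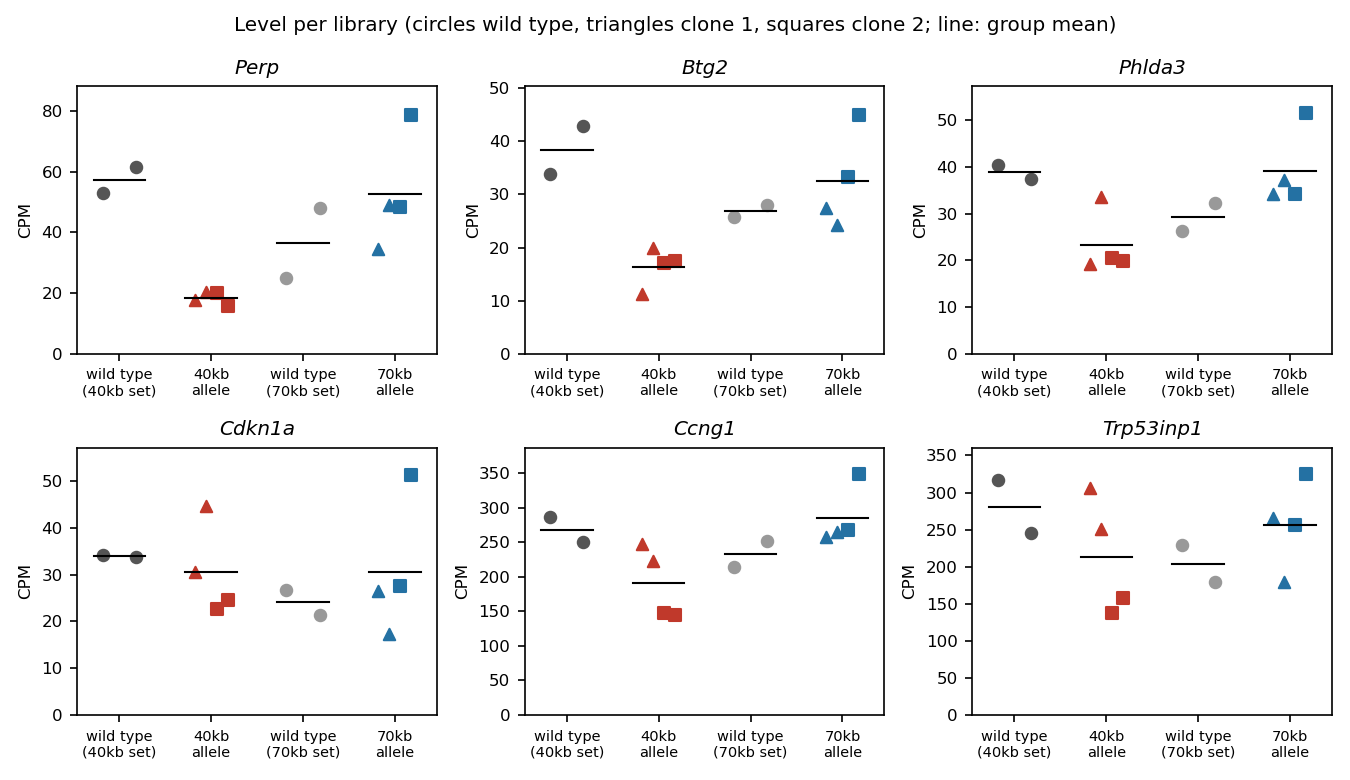
Level in CPM (y axis, from 0) of 6 members in every library, by group. Circles are wild-type libraries, triangles clone 1, squares clone 2, and the line is the group mean; the 4 Perp values of the 40kb allele lie between 15.6 and 20.3 CPM, below both wild-type sets.

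Among the other members with roles in cell death, Phlda3, a pleckstrin homology domain protein that holds back the kinase Akt, read 40.5 and 37.5 CPM in wild type. In the 40kb allele it read 19.1 and 33.6 CPM in clone 1, against 20.5 and 19.8 CPM in clone 2. The 4 libraries were below both wild-type libraries, 3 of them close together and clone 1 replicate 2 well above those 3. The log2 fold change was -0.75 (SE 0.234, edgeR adjusted p = 0.0771). It passed the threshold without clone 1 replicate 2 (-0.98, edgeR adjusted p = 0.0441) and in DESeq2 (-0.76, adjusted p = 0.0438). Bax, the pore-forming protein of the mitochondrial outer membrane in apoptosis, read 173 and 177 CPM in wild type and 217, 243, 241 and 228 CPM in the 40kb libraries. Here every 40kb library was above both wild-type libraries, and the log2 fold change was 0.41 (SE 0.133, edgeR adjusted p = 0.0894). Trp53inp1, a stress-induced nuclear protein that also acts in autophagy, read 316 and 245 CPM in wild type, 307 and 251 CPM in 40kb clone 1, then 137 and 158 CPM in clone 2. Clone 1 was at the wild-type level and clone 2 below it. Its log2 fold change over both clones was -0.40 (SE 0.298, edgeR adjusted p = 0.441).

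Among the members of the cell cycle, Ccng1, which encodes cyclin G1, a partner of the phosphatase PP2A that acts on Mdm2, read 287 and 250 CPM in wild type. It read 247 and 223 CPM in 40kb clone 1, against 147 and 145 CPM in clone 2. All 4 values were below wild type, those of clone 1 only just, and the log2 fold change was -0.49 (SE 0.214, edgeR adjusted p = 0.188). Cdkn1a, which encodes p21, the inhibitor of cyclin-dependent kinases through which p53 arrests the cycle, read 34.3 and 33.7 CPM in wild type, 30.5 and 44.7 CPM in clone 1, then 22.7 and 24.6 CPM in clone 2. The 40kb values lay on both sides of wild type, and the log2 fold change was -0.15 (SE 0.354, edgeR adjusted p = 0.828).

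The remaining members act in feedback, metabolism and RNA control. Mdm2 read 138 and 118 CPM in wild type and 119, 130, 112 and 100.7 CPM in the 40kb libraries, which overlapped (log2 fold change -0.15, SE 0.147, edgeR adjusted p = 0.567). Sesn2, a leucine sensor that restrains mTORC1, read 106 and 98.0 CPM in wild type. It read 75.1 and 179 CPM in the 2 libraries of clone 1, the lowest and the highest value of all 12 libraries, and 126 and 130 CPM in clone 2. Its log2 fold change was 0.32 (SE 0.267, edgeR adjusted p = 0.486). Zmat3, a zinc finger protein that binds RNA, read 140 and 123 CPM in wild type and 91.3, 171, 113 and 129 CPM in the 40kb libraries, with a log2 fold change of -0.06 (SE 0.199, edgeR adjusted p = 0.882). In all, 4 members (Ccng1, Perp, Btg2 and Phlda3) had every 40kb library below both wild-type libraries, which held for 19.7% of all genes. Bax was the 1 member with every 40kb library above both, which held for 16.4% of all genes.

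The spread within the 40kb allele differed between members. The coefficient of variation over its 4 libraries was lowest for Bax (5.21%), Mdm2 (10.6%) and Perp (12%) and highest for Sesn2 (33.2%) and Trp53inp1 (37.4%). The largest differences between the clones were those of 3 members. Clone 2 was lower than clone 1 by 0.92 on the log2 scale for Trp53inp1 (SE 0.223, edgeR adjusted p = 0.113), by 0.69 for Ccng1 (SE 0.156, adjusted p = 0.0964) and by 0.67 for Cdkn1a (SE 0.296, adjusted p = 0.292). Both clone 2 libraries were below both clone 1 libraries for each of these and for Mdm2 (-0.23, SE 0.148, edgeR adjusted p = 0.438). The share of all genes with such a gap was not counted, so these gaps cannot be read as a trait of the members. In this comparison, added after the data were seen, edgeR called 0 members and 0.0661% of all genes, with 2758 genes at an unadjusted p under 0.05. DESeq2 called 555 genes, among them Trp53inp1 and Ccng1 (adjusted p = 0.0107 for both). Perp and Btg2 differed between the clones by -0.08 (SE 0.316) and 0.15 (SE 0.253).

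The 70kb allele and its wild type were compared in the same way. No member was called: of all genes 0% were called in edgeR, 100 genes had an unadjusted p under 0.05 with 0 members among them, and DESeq2 called 3 genes and 0 members. The fold changes of all 10 members were above 0, from 0.07 (Zmat3) to 0.52 (Perp) on the log2 scale, with a median of 0.28 against 0.00 for all genes, of which 51.4% were above 0. These 10 values share the same 2 wild-type libraries. Without 70kb clone 2 replicate 2 they were above 0 for 9 of 10, with a median of 0.18. Against the wild type of the other set they were above 0 for 6 of 10, with a median of 0.02.

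The library 70kb clone 2 replicate 2 held the highest value of all 12 libraries for 7 of the 10 members. Cdkn1a read 26.8 and 21.4 CPM in the wild type of this set, 26.4 and 17.3 CPM in clone 1, then 27.6 and 51.2 CPM in clone 2. Of these only the last was well above wild type, and the log2 fold change was 0.35 (SE 0.362, edgeR adjusted p = 1.00). Perp read 25.1 and 48.1 CPM in wild type, 34.4 and 48.9 CPM in clone 1, then 48.2 and 78.7 CPM in clone 2. The log2 fold change was 0.52 (SE 0.301, edgeR adjusted p = 1.00). It was 0.13 without wild-type replicate 1, 1.07 without wild-type replicate 2 and 0.26 without clone 2 replicate 2. Btg2 read 25.8 and 28 CPM in wild type, 27.5 and 24.2 CPM in clone 1, then 33.3 and 45.0 CPM in clone 2, a log2 fold change of 0.27 (SE 0.257, edgeR adjusted p = 1.00). In the same library the summed fibroblast markers (626 CPM) and trophoblast markers (802 CPM) were the highest of the 12. With the marker level as a covariate the fold changes of all 10 members were above 0, with a median of 0.25.

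Phlda3 and Ccng1 were the 2 members with every 70kb library above both wild-type libraries, which held for 2.4% of all genes. No member had every 70kb library below both, which held for 3.08%. Phlda3 read 26.2 and 32.3 CPM in wild type and 34.1, 37.1, 34.2 and 51.5 CPM in the 70kb libraries. Its mean was 29.2 ± 4.28 (SD, n = 2) against 39.2 ± 8.30 CPM (SD, n = 4), which is 0.42 higher on the log2 scale (SE 0.243, edgeR adjusted p = 1.00). Ccng1 read 214 and 252 CPM in wild type and 257, 264, 268 and 348 CPM in the 70kb libraries, so 3 of these were only just above the higher wild-type library. Its log2 fold change was 0.29 (SE 0.221, edgeR adjusted p = 1.00).

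In this set the libraries of replicate 1 share one B code in their column names and those of replicate 2 another, a code whose meaning the labels do not give. Set beside the wild-type library of the same code, a comparison added after the data were seen, every 70kb library was higher for 7 of 10 members (Mdm2, Ccng1, Perp, Sesn2, Trp53inp1, Zmat3 and Phlda3), which held for 7.14% of all genes. No member was lower in every library, which held for 8.31%. For Perp the values were 34.4 and 48.2 against 25.1 CPM in replicate 1 and 48.9 and 78.7 against 48.1 CPM in replicate 2. Some margins were thin. Zmat3 read 138.57 against 137.98 CPM in clone 2 replicate 1, and Trp53inp1 179.85 against 178.78 CPM in clone 1 replicate 2. All members share the same wild-type libraries, so their results here are not independent. With the code as a block no member passed the test, and the log2 fold change of Perp was 0.56 (SE 0.23, edgeR adjusted p = 1.00).

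Of the other members, Trp53inp1 read 230 and 179 CPM in wild type and 266, 180, 256 and 325 CPM in the 70kb libraries (log2 fold change 0.33, SE 0.306). Mdm2 read 114 and 107 CPM in wild type and 125, 113, 129 and 157 CPM in the 70kb libraries (0.24, SE 0.149). For both genes clone 2 replicate 2 was the highest library and the lowest 70kb library lay within the wild-type range. Bax read 230 and 207 CPM in wild type and 244, 249, 247 and 187 CPM in the 70kb libraries. Its lowest value came from clone 2 replicate 2, where most members had their highest, and its log2 fold change was 0.08 (SE 0.131). Sesn2 read 140 and 98.8 CPM in wild type and 152, 112, 149 and 147 CPM in the 70kb libraries (log2 fold change 0.23, SE 0.265). Zmat3 read 138 and 161 CPM in wild type and 154, 172, 139 and 165 CPM in the 70kb libraries (0.07, SE 0.200). Between the 70kb clones, another comparison added after the data were seen, edgeR called 0 members and 0.012% of all genes, with 1579 genes at an unadjusted p under 0.05. DESeq2 called 176 genes and 0 members. The largest difference of a member was that of Cdkn1a, which was 0.85 higher in clone 2 on the log2 scale (SE 0.298, edgeR adjusted p = 0.401).

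**Figure D3:**
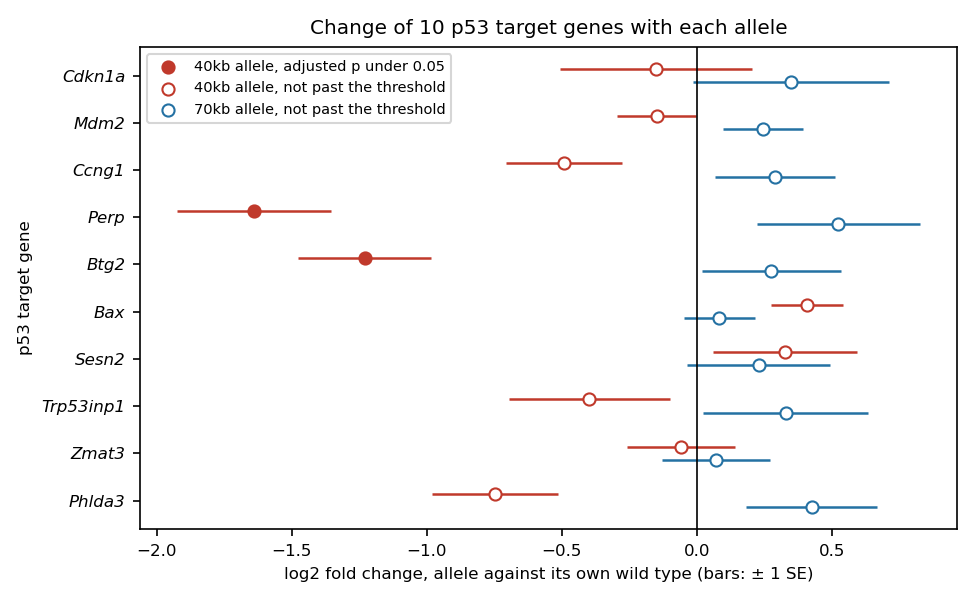
Log2 fold change of each member (x axis) with the 40kb allele (red) and the 70kb allele (blue), each against its own wild type; bars are 1 SE to each side and filled points have an edgeR adjusted p under 0.05. Perp (-1.64) and Btg2 (-1.23) with the 40kb allele are the 2 filled points, and all 10 blue points lie above 0.

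The effects of both alleles were compared by the difference of the 2 fold changes. It was -2.16 for Perp (SE 0.423, edgeR adjusted p = 0.169), -1.5 for Btg2 (SE 0.362, adjusted p = 0.169), -1.17 for Phlda3 (SE 0.339, adjusted p = 0.192) and -0.78 for Ccng1 (SE 0.309, adjusted p = 0.295), each being the effect of the 40kb allele minus that of the 70kb allele. The difference was below 0 for 8 of 10 members. It was above 0 for Bax (0.32) and Sesn2 (0.10). In edgeR 0% of all genes passed the threshold for this difference, with 2128 genes at an unadjusted p under 0.05, 4 members among them. DESeq2 called 448 genes, with Perp (adjusted p = 0.00127) and Btg2 (adjusted p = 0.0136) among them, and edgeR without the filter on low counts called 10 genes, Perp among them (adjusted p = 0.0489). Whether Perp and Btg2 responded differently to the 2 alleles therefore turned on the tool and, for Perp, on the filter.

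The wild-type sets were compared because each allele has its own. Their column names differ and share no B code. A difference between the sets cannot be told apart from whatever those names and codes stand for. The 70kb set's wild type was lower for 7 of 10 members, with a median log2 difference of -0.31 against 0.01 for all genes. No member passed the test. Of all genes 0% were called in edgeR, 394 had an unadjusted p under 0.05, and DESeq2 called 0. Both libraries of the 70kb set were below both of the 40kb set for 6 members (Cdkn1a, Mdm2, Perp, Btg2, Trp53inp1 and Phlda3), which held for 19% of all genes, and above both for Bax, which held for 21.2%. The largest differences were those of Perp (-0.65), Btg2 (-0.51) and Cdkn1a (-0.50). The levels of Perp over the 4 groups thus ran from 18.4 ± 2.21 in the 40kb allele (SD, n = 4) through 36.6 ± 16.3 in the wild type of the 70kb set (SD, n = 2) and 52.6 ± 18.6 in the 70kb allele (SD, n = 4) to 57.3 ± 6.04 CPM in the wild type of the 40kb set (SD, n = 2). By library, the 40kb allele ran from 15.6 to 20.3 CPM and the 70kb allele from 34.4 to 78.7 CPM, which overlapped both wild-type sets. The wild-type sets did not overlap each other (25.1 and 48.1 against 53 and 61.5 CPM).

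**Figure D4:**
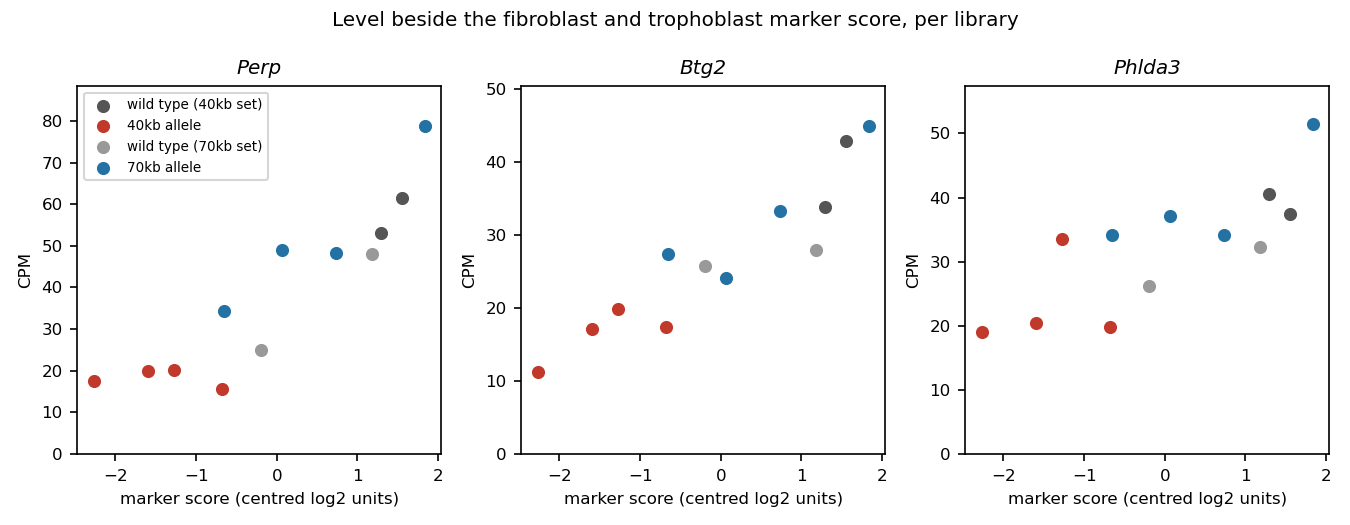
Level of Perp, Btg2 and Phlda3 in CPM (y axis) beside the mean centred log2 level of the fibroblast and trophoblast markers (x axis), 1 point per library. The 4 libraries of the 40kb allele have marker scores from -2.27 to -0.67, and 70kb clone 2 replicate 2 (1.84) is highest on both axes in all 3 panels.

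The plot of levels beside the marker score shows how far the 3 members that differed most between the alleles moved with the marker genes. Whether the marker RNA came from other cells or from the ES cells was not tested. The 40kb libraries had marker scores of -2.27, -1.27, -1.60 and -0.67 and their wild type 1.29 and 1.55. Those of the 70kb set's wild type were -0.19 and 1.18, and those of the 70kb libraries -0.66, 0.06, 0.74 and 1.84. Perp was low in 70kb-set wild-type replicate 1 (25.1 CPM), the library of the lower score in that pair, and higher in replicate 2 (48.1 CPM). Within the 40kb allele the order differed: clone 2 replicate 2 had the highest marker score of the 4 and the lowest Perp level (15.6 CPM).

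Perp and Btg2 also moved together over the libraries. Over the 12 libraries, which share groups and clones and are not independent, the correlation of their log2 CPM was 0.9, and 0.873 without 70kb clone 2 replicate 2. That of Perp with Phlda3 was 0.892. Over the 45 pairs of members the median correlation was 0.392, and 0.241 without that library, with values from -0.545 to 0.9 over the 12 libraries. Bax went against the rest in 7 of its 9 pairs, where the correlation was below 0. Among the 11810 genes that averaged 50 or more counts, those most like Perp were S100a6 (Pearson r = 0.973, 12 libraries), Galnt14 (0.97) and Morc4 (0.965). Those most like Btg2 were Pam (0.986), Ttc39a (0.971) and Mtch1 (0.967). These correlations are descriptions of the pattern over the libraries.

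The RNA of p53 itself and of its partners gives the setting of these values. Trp53, which encodes p53, averaged 382 ± 21.1 CPM in the wild type of the 40kb set (SD, n = 2) and 418 ± 123 CPM in the 40kb allele (SD, n = 4), a log2 fold change of 0.13 (edgeR adjusted p = 0.78). In the 40kb allele clone 1 replicate 1 read 233 CPM and the other 3 libraries 487, 473 and 478 CPM, above both wild-type libraries (396 and 367 CPM). Without that library the log2 fold change was 0.32 (edgeR adjusted p = 0.141). With the 70kb allele the change of Trp53 was 0.03 (edgeR adjusted p = 1.00). Mdm4, the partner of Mdm2 in holding p53 down, had log2 fold changes of 0.17 (edgeR adjusted p = 0.755) and 0.08 (adjusted p = 1.00), the first of which turned to -0.09 without 40kb clone 1 replicate 1. Of 24 tested genes of p53 and its regulators, 1 was called with the 40kb allele. It was Cdkn2a, whose Arf product inhibits Mdm2 and whose other product, p16, inhibits CDK4 and CDK6. Cdkn2a fell from 5.24 ± 1.71 (SD, n = 2) to 1.97 ± 0.543 CPM (SD, n = 4), with log2 fold change -1.41 (edgeR adjusted p = 0.0214). The median of the 24 genes was 0.09, against 0.06 for all genes.

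A wider list of 43 other p53 targets had its calls near the background. With the 40kb allele 2 fell and none rose: Rap2b, a small GTPase, from 48.2 ± 0.944 to 27.4 ± 4.43 CPM (log2 fold change -0.81, edgeR adjusted p = 0.0323), and Tgfa, a ligand of the EGF receptor, from 7.0 ± 1.7 to 2.37 ± 0.894 CPM (-1.56, adjusted p = 0.0398; SD, n = 2 and 4 for both). The fold changes of 22 were above 0 and of 21 below, with a median of 0.01 against 0.06 for all genes. With the 70kb allele 0 were called, 34 of 43 were above 0 and the median was 0.10.

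Families of the members were examined too. Of 5 other CDK inhibitors, Cdkn2a was the 1 called, and all 5 had fold changes below 0 with the 40kb allele (median -0.68). Of 11 genes of the G1 cyclins and their kinases none was called in edgeR (median 0.29). Of 14 other BCL2 family genes 1 rose and 1 fell. Bmf, a BH3-only death promoter, rose from 26.0 ± 2.17 to 37.8 ± 4.60 CPM (SD, n = 2 and 4; log2 fold change 0.54, edgeR adjusted p = 0.0455). Bcl2, the survival factor that Bax counters, fell from 6.66 ± 0.821 to 0.981 ± 0.679 CPM (SD, n = 2 and 4; -2.77, adjusted p = 0.0303). Of the 4 other BTG and TOB genes, relatives of Btg2, none was called in edgeR (median 0.01). Of 11 other sestrins and mTORC1 sensors, Castor2, an arginine sensor, was the 1 called and fell (-1.14, edgeR adjusted p = 0.0499). Among 7 paralogs of Ccng1, Phlda3, Perp and others, Pmp22, the tetraspan myelin protein related to Perp, was the 1 called and fell from 21.9 ± 3.69 to 0.868 ± 0.489 CPM (SD, n = 2 and 4; -4.66, adjusted p = 0.025).

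Perp is a component of epithelial junctions and Btg2 an early-response gene, so genes of both kinds were read beside them. Of 15 tested junction genes 6 fell with the 40kb allele and none rose, and all 15 had fold changes below 0 (median -0.60). Of all genes, 5.67% were called lower with this allele and 56.2% had fold changes above 0. Dsc2, a desmosomal cadherin, fell from 20.8 ± 4.07 to 1.94 ± 0.551 CPM (log2 fold change -3.42, edgeR adjusted p = 0.0175). Cldn7, a claudin, fell from 36.6 ± 5.89 to 7.53 ± 2.07 CPM (-2.28, edgeR adjusted p = 0.0202), and Dsp, which encodes desmoplakin, fell from 146 ± 14.24 to 37.2 ± 11.1 CPM (-1.97, adjusted p = 0.0258; SD, n = 2 and 4 for all 3). Of 15 immediate early genes 3 fell and 1 rose (median -0.60). Fos and Jun, the parts of AP-1, fell with log2 fold changes of -1.86 and -1.73 (edgeR adjusted p = 0.0239 and 0.0265), and Klf10, a zinc finger repressor, rose by 0.67 (adjusted p = 0.0257). With the 70kb allele 0 genes of either list were called in edgeR, and the medians were 0.11 and 0.01. Of the early genes 10 were then above 0 and 5 below. Fos was among the latter with a log2 fold change of -1.13 (SE 0.400, edgeR unadjusted p = 0.0151), which was -0.16 without wild-type replicate 2. These falls stood beside those of the cell type markers: 10 of 14 fibroblast genes (Fbn1, Dcn and Tagln at the smallest adjusted p) and 6 of 10 trophoblast genes (Krt19, Krt8 and Krt18) fell with the 40kb allele, with medians of -3.09 and -3.43. Of 15 pluripotency genes 3 rose (Dppa2 by 0.70, Nr0b1 by 1.17 and Fgf4 by 0.89 on the log2 scale) and none fell. The part of the marker genes in the junction and early gene results was not tested. No gene was called in the fit with the marker covariate. That fit cannot separate the markers from the allele, because the marker score did not overlap between the groups. Without either wild-type library of the 40kb set no gene of any of these lists was called in edgeR. The calls of Bmf, Fgf4 and Nr0b1 were lost when any 1 library of the comparison was left out, and the change of Fgf4 then ran from 0.54 to 1.36. Those of Rap2b, Bcl2, Castor2, Pmp22, Fos, Jun, Fbn1, Dcn and Dppa2 were kept only when 40kb clone 2 replicate 2 was left out. That of Tgfa was kept only when 40kb clone 1 replicate 2 was left out.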

How the data were processed

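A stranded mRNA kit was used for the RNA-seq libraries, per the labels' protocols. The deposited table holds whole-number counts per gene, made by the authors. The submitters' processing notes name STAR, edgeR and mm9. Sources used here do not give the strand setting of the counting, so reads of overlapping antisense genes may be included. Of 37310 identifiers 32620 matched a symbol through a gene table. The other 61 samples of the series were not analysed here, nor were Ptprv, Pvt1, Cdkn2d and Bcl2a1a. No 2 libraries held identical counts.

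Counts were tested in edgeR 4.0.16 (R 4.3.3): the tool's low-count filter, TMM scaling, and quasi-likelihood F tests from a single model of all 12 libraries with group means (8 residual degrees of freedom, biological coefficient of variation 23.8%), with Benjamini-Hochberg adjustment over 16636 genes with a threshold of 0.05. Genes past it are called. DESeq2 1.42.0 was the alternative tool. The tests were checked on simulated data, in which libraries were drawn independently and clones were not modelled. Of simulated 2-fold changes, 49% were called in the 40kb comparison and 47% in the 70kb comparison. Of 4-fold changes, 90% and 87% were called. The marker score of a library is the mean log2 CPM (prior count 2) over both marker lists, after each gene is centred.

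The members, lists and most tests were chosen with earlier results of these data known; the pair search in the promoters and the comparisons between clones were added after the values were seen. Named genes are the 10 members, Trp53 and Mdm4, up to 3 called genes of each list by adjusted p, and the 3 genes most like each called member. Bbc3, Pmaip1, Sesn1 and Cdkn2a stand in 2 lists each.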

Additional observations from a re-analysis of the deposited data

Results flagged for a closer look

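In 4 of the 20 groups of 4 libraries checked (10 members, 2 alleles), 1 library stood apart from the other 3 beyond Dixon's 95% critical value for the gap over the range. For independent, normally distributed values chance flags about 1 in 20 groups. Here libraries share clones and the members share libraries, so that rate need not hold. Phlda3 in 40kb clone 1 replicate 2 was at 33.6 CPM, with the other 3 libraries of that allele at 19.1 to 20.5 CPM. Ccng1 in 70kb clone 2 replicate 2 was at 348 CPM, above the other 3 at 257 to 268 CPM. Bax in the same library was at 187 CPM, below the other 3 at 244 to 249 CPM. Sesn2 in 70kb clone 1 replicate 2 was at 112 CPM, below the other 3 at 147 to 152 CPM.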

How the results depend on the processing

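Perp and Btg2 were below 0 with the 40kb allele in every alternative run, from -1.75 to -0.54 and from -1.39 to -0.35 on the log2 scale. Of the members, 2 were called in the reported fit, 0 with counts summed per clone, with clone 2 only, with the wild type of the other set or with the marker score, and 1 with the B code of the column names as a replicate block; leaving out 1 library gave 0 to 3. The genes called in this comparison numbered 1070, and 1844 in DESeq2, 3 with counts summed per clone, 2 with clone 2 only, 0 with the wild type of the other set (2134 at an unadjusted p under 0.05) and 0 with the marker score. Leaving out 1 library gave 0 to 1099: 0 without either wild-type library (2637 and 1968 at an unadjusted p under 0.05), 527 and 277 without replicate 1 and 2 of clone 1, and 279 without clone 2 replicate 1. With the replicate number as a block, 3 members (Phlda3 added, adjusted p = 0.0346) and 1614 genes were called, and 357 genes with the B code in its place. Across genes, the differences between replicates of 2 groups correlated at -0.09 to 0.17 in the 40kb set, whose replicates share only a number. In the 70kb set, whose replicates share the number and the B code, they correlated at 0.21 to 0.68. In the 40kb set matched by B code, wild-type replicate 1 minus 2 was set against clone 1 replicate 2 minus clone 2 replicate 2, giving 0.296. The latter difference is between clones, so clone and B code cannot be told apart in it. Apart from Phlda3 with the number and Btg2 with the B code, whose call was lost (adjusted p = 0.0793), no call of a member changed with either block.

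Genes called with the 70kb allele numbered 0, but 1 without the low-count filter, 3 in DESeq2, 1 with clone 1 only and 1 with all 4 wild-type libraries. The difference between the alleles gave 0 members and 0 genes, but 1 and 10 without the filter and 2 and 448 in DESeq2. Between clones DESeq2 called 2 members and 555 genes (40kb) and 176 genes (70kb), where edgeR called 0, 11 and 2. With the 40kb allele the sign turned for Cdkn1a (0.15 with clone 1 only, 0.35 with the other wild type, 0.10 with all 4 wild-type libraries, 0.56 with the marker score), Mdm2 (0.063 with the other wild type, 0.0024 with the marker score), Trp53inp1 (0.061 with the other wild type) and Zmat3 (0.18 with the B code block, 0.26 with the marker score, and -0.24 to 0.056 on leaving out 1 library). With the 70kb allele it turned for Cdkn1a (-0.14 with clone 1 only, -0.15 with the other wild type, -0.018 to 0.54 on leaving out 1 library), Perp (-0.12 with the other wild type), Btg2 (-0.055 with clone 1 only, -0.24 with the other wild type), Bax (-0.013 with clone 2 only), Trp53inp1 (-0.13 with the other wild type), Sesn2 (-0.0021 to 0.50 on leaving out 1 library) and Zmat3 (-0.036 to 0.19). The cause was not tested, except that fits without a library or clone hold fewer samples. Every member had at least 490 counts in each library, so counting error is small beside the spread between libraries.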
